A study of Mus musculus with 4 samples.

Results

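The genes described here write, maintain and erase methylation at CpG sites of DNA. They were taken by symbol: the methyltransferases Dnmt1, Dnmt3a and Dnmt3b, the Dnmt1 partner Uhrf1, the dioxygenases Tet1, Tet2 and Tet3, and the glycosylase Tdg. Each of the 8 had a row of its own among the 37981 loci of the RNA-Seq tables. On mm10 these loci are chr9:20907206-20959888 (Dnmt1, minus strand), chr17:56303321-56323486 (Uhrf1, plus), chr12:3806007-3914443 (Dnmt3a, plus), chr2:153648690-153687730 (Dnmt3b, plus), chr10:62804570-62899118 (Tet1, minus), chr3:133463679-133544390 (Tet2, minus), chr6:83362373-83441678 (Tet3, minus) and chr10:82629828-82690650 (Tdg, plus). Expression was measured in inner medullary collecting duct (IMCD) cells, the epithelium that concentrates urine in the inner kidney, cultured from C57B/l mice with Tgfbr2 floxed and immortalized with psv40. Tgfbr2 encodes the TGF-β type II receptor (TβRII), without which a cell cannot receive TGF-β signals. The TβRII-/- cells had been treated with adeno-Cre, an adenovirus that carries the Cre recombinase, and the TβRII fl/fl cells had not. Each genotype was measured serum replete and after 4 days without serum (serum starved), which gave 4 libraries, 1 for each condition.

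There were therefore no replicates, and no difference below has a test, an error or a p-value. The 4 libraries come from a Cre-treated and an untreated cell population, so that loss of TβRII, exposure to virus and Cre, and any other difference between these populations cannot be told apart. Levels are FPKM (fragments mapped to a transcript, divided by its length and by the size of the library), which allow levels of different genes to be compared. The tables for replete and starved cells were normalized separately, so a level set across the media also carries any difference in scaling. Genotypes were compared within a medium as the log2 ratio of FPKM + 1, TβRII-/- to TβRII fl/fl. A locus passed the filter with at least 1 FPKM in either library, and was called at a ratio of at least 2-fold.

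Dnmt1 copies methylation onto the new strand behind the replication fork, and Uhrf1 recruits it by binding hemimethylated CpG sites. Dnmt3a and Dnmt3b methylate previously unmethylated sites. The Tet enzymes oxidize 5-methylcytosine, and Tdg excises the most oxidized forms so that base excision repair can restore cytosine. Dnmt1 and Uhrf1 are known for their ties to DNA replication, and the E2F factors that drive genes of S phase bind a motif spelled TTTNNCGC here.

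That motif, searched on both strands of the 250 bases before each RefSeq start (GRCm38.p6), set Dnmt1 and Uhrf1 apart from the other members by description. All 8 members matched the promoter table, with 13 starts among them, and 3 of these windows held the motif. They belonged to Dnmt1 and Uhrf1 alone, and the motif occurred in 4.28% of all 32851 promoters of that length. In the S phase gene list used below, 9 of 25 genes with a promoter held it in some window, against 4.94% of all 27025 genes. The motif includes a CpG site, and the Dnmt1 window and the Uhrf1 windows with it held 26, 10 and 30 such sites. The median over all promoters was 6, and no share was taken over promoters equally rich in CpG. The stretches with the motif in capitals are shown because these are the members called higher with serum in TβRII-/- cells below. The Dnmt1 stretch is 30 bases at chr9:20952823-20952852 (minus strand), before the start at 20952623. Its capitals are a pair of overlapping matches on the opposite strand, and they lie in the 5′ UTR of another transcript of the gene, Dnmt1-201. The Uhrf1 stretches lie outside its annotated exons, at chr17:56303087-56303320 before the start at 56303337, and at chr17:56304063-56304312 before the start at 56304313 (plus strand).
Dnmt1, start 20952623: gtttccgcgcGCGCGAAAAAgccggggtct
Uhrf1, start 56303337: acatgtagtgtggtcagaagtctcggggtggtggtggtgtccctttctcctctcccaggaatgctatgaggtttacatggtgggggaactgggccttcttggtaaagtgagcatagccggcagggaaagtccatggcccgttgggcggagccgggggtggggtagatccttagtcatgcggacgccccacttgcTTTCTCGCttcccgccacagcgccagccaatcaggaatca
Uhrf1, start 56304313: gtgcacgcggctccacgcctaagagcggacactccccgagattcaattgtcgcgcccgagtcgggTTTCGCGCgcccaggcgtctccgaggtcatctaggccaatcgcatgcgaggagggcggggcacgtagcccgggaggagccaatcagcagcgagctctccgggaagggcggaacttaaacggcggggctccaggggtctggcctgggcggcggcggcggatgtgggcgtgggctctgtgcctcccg

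The other motifs were more widespread. A CCAAT box (CCAAT) stood in a window of 4 members, Dnmt1, Uhrf1, Tet3 and Tdg, and in a window of 37.5% of all genes. A GC box (GGGCGG) stood in a window of 7 members, all but Tdg, and in a window of 35.4% of all genes. The windows held between 2 and 51 CpG sites, against a median of 6 over all promoters. The single Tet2 window had the most, a number reached by 0.067% of all promoters, and the Dnmt3a windows held 38, 40 and 15. A match is a description of these letters, not evidence of binding.

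The targeted gene was checked first. Tgfbr2 stood at 57.0 FPKM in TβRII-/- against 163 FPKM in TβRII fl/fl cells when replete, and at 73.7 and 143 FPKM when starved, log2 ratios of -1.50 and -0.94. The direction is that of the labels, but the starved ratio fell short of the call, and a gene-level FPKM also covers exons outside the deleted part. Whether every cell of the TβRII-/- population had lost the floxed part was not tested. Of 18 collecting duct markers, 15 passed the filter in each medium. In replete cells 8 of them were called lower in TβRII-/- and 2 higher, and in starved cells 6 were called lower and 2 higher. Their summed level was 1093 FPKM in TβRII-/- against 1259 FPKM in TβRII fl/fl replete cells, and 884 and 1098 FPKM in starved cells. Aqp2, the water channel that defines principal cells, was listed at 0 in every library. Krt8, an epithelial keratin, stood at 251 and 142 FPKM in TβRII fl/fl and at 0.229 and 0.133 FPKM in TβRII-/- cells, replete and starved. Krt7, another epithelial keratin, went the other way, with 91.5 and 53.9 FPKM in TβRII fl/fl and 525 and 362 FPKM in TβRII-/- cells (log2 ratios 2.51 and 2.72). Krt18 was also called higher in replete cells, at 1.79, and stood at 0.71 in starved cells. Gata3, whose locus is joined with another transcript, was the other marker called higher in starved cells, at 1.63, and stood at 0.84 in replete cells. Cdh1, the epithelial cadherin, was called lower in both media (-1.11 and -1.27) and reached at most 1.79 FPKM. Epcam and Aqp3 reached at most 0.485 and 0.487 FPKM in any library. The epithelial factor Ehf (-2.42 and -1.34) and the enzyme Hsd11b2 (-2.02 and -1.54) were called lower in both media. Of the other cell types, endothelial markers summed to at most 0.579 FPKM in a library. Fibroblast markers summed to 0.882 and 20.7 FPKM in replete TβRII-/- and TβRII fl/fl cells, where Postn made up most of the latter, and to 0.783 and 3.56 FPKM in starved cells. Proximal tubule markers summed to between 7.71 and 53.8 FPKM, mostly Lrp2 and Aqp1, with Slc34a1, Slc22a6 and Hnf4a at 0 throughout. Aqp1 was called lower in TβRII-/- cells in both media (-3.49 and -5.04), and Lrp2 was called higher in both (1.05 and 2.04). Leukocyte markers summed to between 12.5 and 20.3 FPKM, mostly Csf1r and Cd68, with Cd3e at 0. The part of these differences in the results below was not tested.

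Among the writers and erasers, the log2 ratio between genotypes was largest in size for Dnmt1, Dnmt3a and Tet1 in replete cells, and for Tet1, Tdg and Uhrf1 in starved cells. Of the 6 members that passed the filter in replete cells, only Dnmt1 was called, as higher in TβRII-/- cells, where 7% of all 12635 loci that passed were called higher and 11.1% lower. In starved cells 7 members passed and none was called, where 8.02% of 12687 loci were called higher and 6.64% lower. So few members cannot be set apart from these shares. The members' median log2 ratio was 0.10 in replete and 0.18 in starved cells, against medians of -0.03 and 0.03 over all loci that passed.

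**Figure D1:**
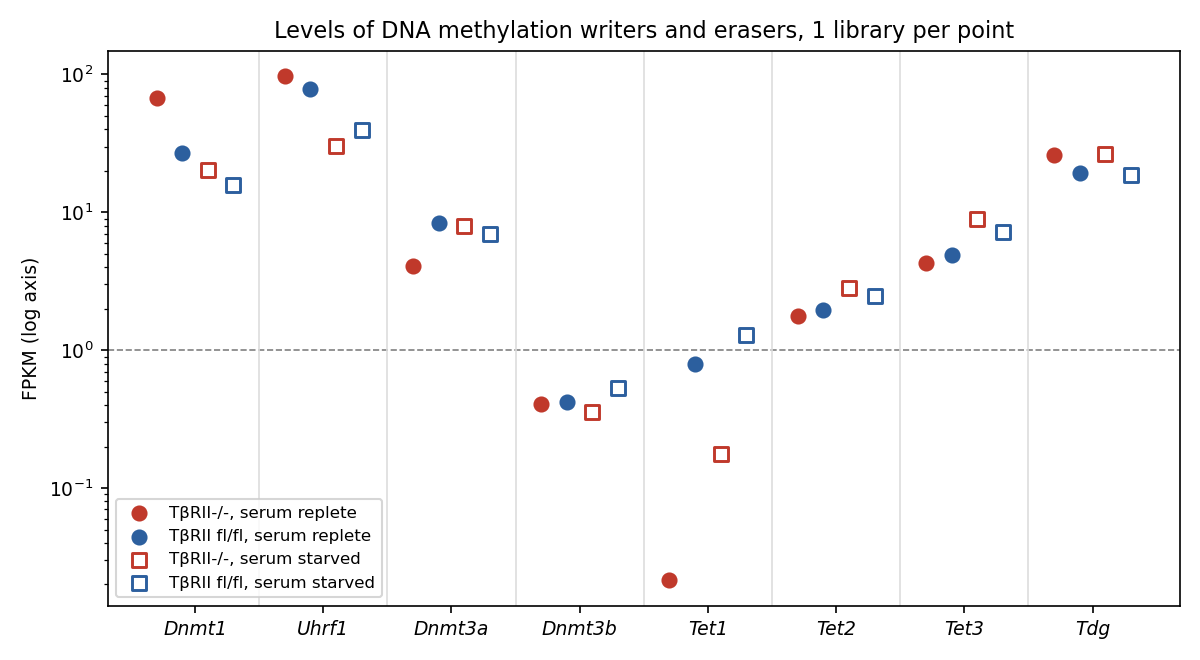
FPKM (log axis) of the 8 genes, with 1 point for each library. Red points are TβRII-/- and blue points TβRII fl/fl cells, filled circles are serum replete and open squares serum starved, and the dashed line marks the filter at 1 FPKM. Tet1 has the widest spread, from 0.0214 to 1.29 FPKM, and Dnmt3b stays below 1 FPKM in all 4 libraries.

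Dnmt1, the maintenance methyltransferase, stood at 67.1 FPKM in replete TβRII-/- cells and 27.1 FPKM in replete TβRII fl/fl cells. In starved cells it stood at 20.3 FPKM in TβRII-/- against 15.9 FPKM in TβRII fl/fl. The replete TβRII-/- library was thus the high one, and TβRII-/- lay above TβRII fl/fl in both media. The genotype difference was 2.48-fold when replete (log2 ratio 1.28) and 1.28-fold when starved (log2 ratio 0.34). Its place among the 13160 loci that passed in any library moved accordingly: 86.8% of these loci were lower than Dnmt1 in replete TβRII-/- cells, and 54.6% in starved TβRII fl/fl cells.

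Uhrf1, which guides Dnmt1 to replicated DNA, was the highest of the 8 genes in every library. It measured 97.5 FPKM in TβRII-/- against 78.7 FPKM in TβRII fl/fl replete cells, and 30.3 and 39.5 FPKM in starved cells. The genotypes lay in opposite order in the media, with log2 ratios of 0.31 and -0.37, neither of which reached 2-fold. Of the 50-base stretches in its longest coding transcript, 18.9% also occur in other annotated genes, chiefly the pseudogene Gm5648, so reads from these could be split. Gm5648 itself was listed at no more than 0.0488 FPKM.

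The quotient of the 2 genes within a library, which no scaling of a library can alter, differed more between genotypes than between media. Uhrf1 exceeded Dnmt1 by 1.45-fold and 1.49-fold in replete and starved TβRII-/- cells, and by 2.91-fold and 2.49-fold in the TβRII fl/fl cells. Dnmt1 relative to Uhrf1 was therefore 2.00 times as high in TβRII-/- as in TβRII fl/fl cells when replete and 1.67 times as high when starved. This rests on 2 libraries of each genotype, and the share of other gene pairs whose quotient parts the genotypes likewise was not counted.

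Both maintenance genes were higher with serum. Within TβRII-/- cells the log2 ratio of replete to starved was 1.68 for Dnmt1 and 1.65 for Uhrf1, and these were the 2 members called higher among the 6 that passed, where 5.92% of 12327 loci were called higher and 8.02% lower. Within TβRII fl/fl cells the ratios were 0.74 for Dnmt1 and 0.98 for Uhrf1, and none of the 7 members that passed was called, where 3.77% of 12583 loci were called higher and 2.76% lower. The medians over all loci were -0.13 in TβRII-/- and -0.02 in TβRII fl/fl cells.

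In this serum ratio both genes lay within the range of S phase genes. In a list of 30 replication genes, the median ratio of replete to starved was 1.69 in TβRII-/- and 0.72 in TβRII fl/fl cells, and 28 and 2 of them were called higher. Dnmt1 lay 0.01 below that median in TβRII-/- cells and 0.02 above it in TβRII fl/fl cells, with 14 and 16 of the 30 genes below it. Uhrf1 lay 0.04 below it in TβRII-/- cells and 0.26 above it in TβRII fl/fl cells, with 11 and 27 of the 30 genes below it. Genes of mitosis differed from this pattern, with a median of 2.14 in TβRII-/- and 0.24 in TβRII fl/fl cells, where 20 and 0 of 20 were called.

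**Figure D2:**
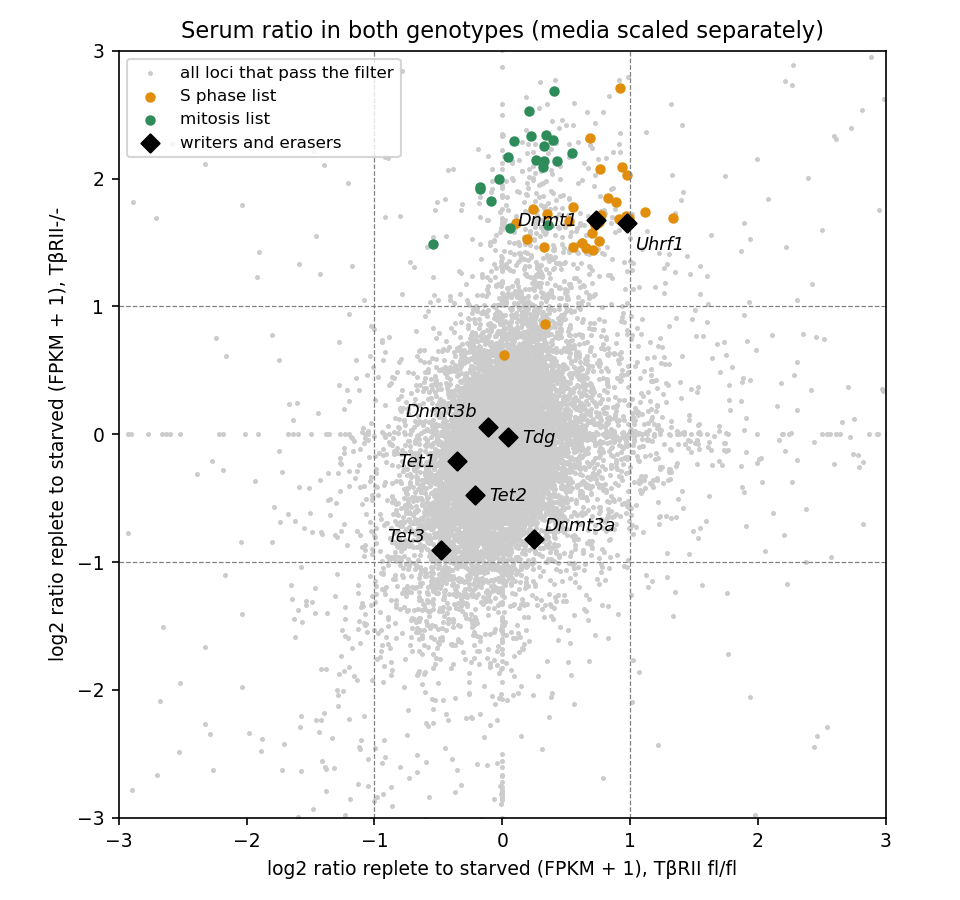
Log2 ratio of replete to starved FPKM + 1 in TβRII fl/fl cells (horizontal) and TβRII-/- cells (vertical), media scaled separately. Grey dots are all loci that pass the filter, orange the S phase list, green the mitosis list and black diamonds the 8 members, drawn whether or not they pass; dashed lines mark 2-fold, and loci beyond 3 lie outside the frame. Dnmt1 and Uhrf1 sit among the S phase genes, at 1.68 and 1.65 on the vertical axis, and the other members sit at or below 0.06.

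In the genotype ratio Dnmt1 lay near the top of the list and Uhrf1 did not. The S phase list had a median log2 ratio of TβRII-/- to TβRII fl/fl of 0.51 in replete cells, with 5 of 30 genes called higher and none lower, and of -0.50 in starved cells, with 1 higher and 2 lower. Dnmt1 lay above that median by 0.77 in replete and by 0.84 in starved cells, higher than 28 and 29 of the 30 genes. Uhrf1 lay 0.21 below it in replete and 0.13 above it in starved cells. Orc1, a subunit of the origin recognition complex, was the S phase gene above Dnmt1 in both media, at 2.36 and 1.02. Rrm2, a ribonucleotide reductase subunit, was above it in replete cells only, at 1.81, and stood at 0.02 in starved cells. The 20 mitosis genes were all called higher in replete TβRII-/- cells, with a median of 1.89, and none was called in starved cells, with a median of -0.11. Aurka, a mitotic kinase, had ratios of 2.10 and -0.10, and Ccnb1, cyclin B1, of 2.09 and -0.04. Whether the share of cycling cells or the RNA per cell differed cannot be told apart in bulk libraries.

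**Figure D3:**
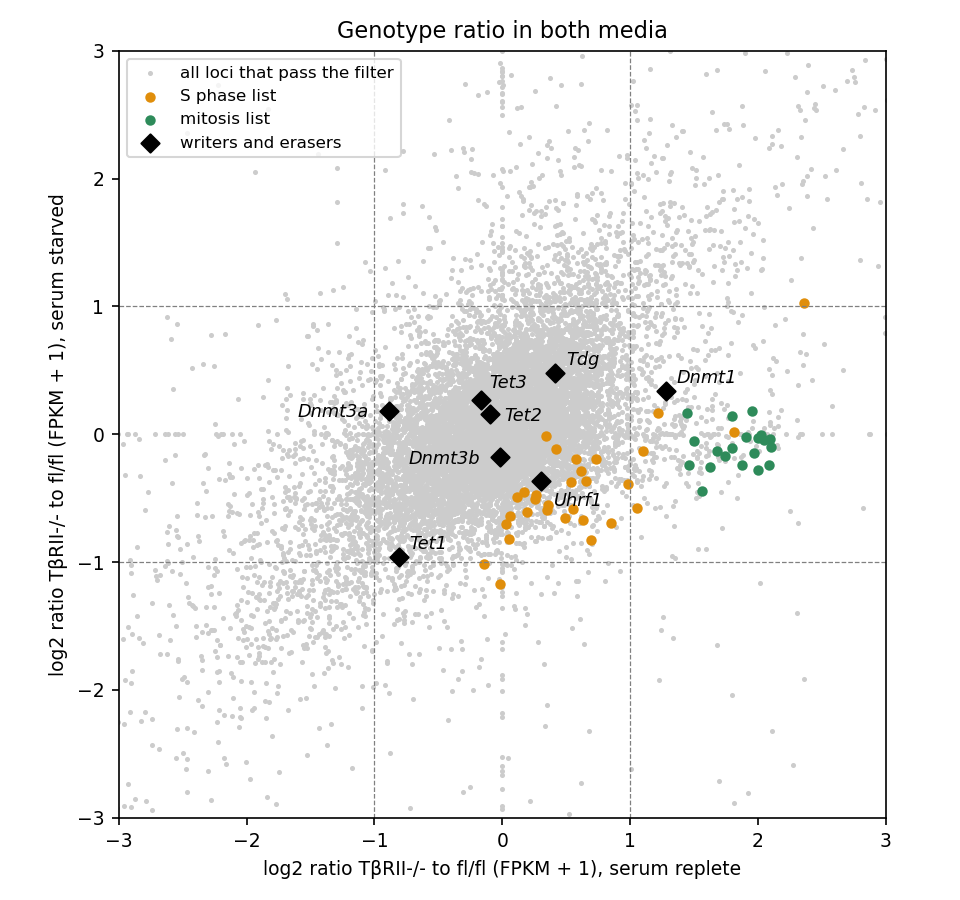
Log2 ratio of TβRII-/- to TβRII fl/fl FPKM + 1 in replete cells (horizontal) and starved cells (vertical). Grey dots are all loci that pass the filter, orange the S phase list, green the mitosis list and black diamonds the 8 members, drawn whether or not they pass; dashed lines mark 2-fold, and loci beyond 3 lie outside the frame. Dnmt1 lies at 1.28 and 0.34, above nearly all S phase genes, and Tet1 at -0.81 and -0.96 in the opposite corner.

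Dnmt3a, a de novo methyltransferase, stood at 4.09 FPKM in TβRII-/- against 8.42 FPKM in TβRII fl/fl replete cells. In starved cells it stood at 7.98 FPKM in TβRII-/- against 6.92 FPKM in TβRII fl/fl. The replete TβRII-/- library was the low one, and the other 3 lay close together. Its log2 ratio was -0.89 in replete cells, short of the call at a pseudocount of 1 FPKM though the FPKM themselves were 2.06-fold lower, and 0.18 in starved cells. The starved ratio exceeded the replete ratio by 1.07, past 2-fold. Dnmt3a was the only member past it, where 8.81% of 13160 loci had a ratio larger by 2-fold in starved cells, 5.39% had one larger in replete cells, and the median difference was 0.11. In the serum comparison its log2 ratio of replete to starved was -0.82 in TβRII-/- and 0.25 in TβRII fl/fl cells.

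Dnmt3b, the second de novo enzyme, was low throughout and passed the filter in neither medium. It was listed at 0.407 and 0.422 FPKM in replete TβRII-/- and TβRII fl/fl cells and at 0.353 and 0.533 FPKM in starved cells. Of its 50-base stretches, 11.5% also occur in Dnmt3c, a rodent copy of Dnmt3b known from male germ cells, which has no row in the tables. Dnmt3l, the catalytically inactive partner of the de novo enzymes, was listed at 0 in all 4 libraries.

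Summed over the 3 methyltransferases, the FPKM were 71.6 in replete TβRII-/- and 35.9 in replete TβRII fl/fl cells, and 28.6 and 23.3 in starved cells. Dnmt1 made up 93.7% of that sum in replete TβRII-/- cells, and 75.4%, 70.9% and 68.0% in replete TβRII fl/fl, starved TβRII-/- and starved TβRII fl/fl cells. Dnmt3a made up 5.72% in replete TβRII-/- cells and between 23.5% and 29.7% in the other 3 libraries. The highest level of Dnmt1 and the lowest of Dnmt3a thus fell in the same library, replete TβRII-/-.

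Tet1, a dioxygenase best known from embryonic stem cells and germ cells, was the member with the largest quotient between genotypes. It was listed at 0.0214 FPKM in TβRII-/- against 0.790 FPKM in TβRII fl/fl replete cells, and at 0.178 and 1.29 FPKM in starved cells. TβRII fl/fl exceeded TβRII-/- by 36.9-fold when replete and by 7.24-fold when starved, and the genotypes did not overlap. These are quotients of very low levels, and the files give no read numbers from which an error could be set. On the log2 scale of FPKM + 1 the ratios were -0.81, where the gene failed the filter, and -0.96. With a pseudocount of 0.1 FPKM they were -2.87 and -2.32, and the starved value was then called. As a background chosen after the values were seen, 1188 loci stood between 0.5 and 2 FPKM in each TβRII fl/fl library, and 7.58% of them lay lower in the TβRII-/- library by at least 7.24-fold in both media. That is the smaller quotient of Tet1, and loci that reached its larger quotient as well were not counted.

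Tet2, which lacks the DNA-binding CXXC domain of Tet1, stood at 1.77 and 1.97 FPKM in replete TβRII-/- and TβRII fl/fl cells and at 2.85 and 2.46 FPKM in starved cells. Its log2 ratios were -0.10 and 0.15. Tet3 was the most abundant of the family, at 4.26 and 4.90 FPKM in replete TβRII-/- and TβRII fl/fl cells and at 8.87 and 7.22 FPKM in starved cells. Its log2 ratios were -0.17 and 0.26. Both genes were higher in the starved libraries of either genotype, with log2 ratios of replete to starved of -0.47 and -0.22 for Tet2 and of -0.91 and -0.48 for Tet3 in TβRII-/- and TβRII fl/fl cells. None was called, although the FPKM of Tet3 were 2.08-fold higher in starved than in replete TβRII-/- cells.

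The family sum was 6.05 and 7.66 FPKM in replete TβRII-/- and TβRII fl/fl cells and 11.9 and 11.0 FPKM in starved cells. Tet3 made up between 63.9% and 74.6% of it. Tet1 made up 10.3% and 11.8% of it in replete and starved TβRII fl/fl cells, and 0.353% and 1.50% in TβRII-/- cells.

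Tdg, the thymine DNA glycosylase, differed more between genotypes than between media. It stood at 26.0 FPKM in TβRII-/- against 19.3 FPKM in TβRII fl/fl replete cells, and at 26.4 and 18.7 FPKM in starved cells. Within each medium TβRII-/- lay above TβRII fl/fl, by log2 ratios of 0.41 and 0.48, short of a call. Of 12162 loci that passed in both media only 3967 had genotype ratios of opposite sign, so a shared sign is common. The ratio of replete to starved was -0.02 and 0.04. The gene's value is uncertain for 2 reasons. Of its 50-base stretches 66.3% also occur in other annotated genes, chiefly the pseudogenes Tdg-ps, Gm9855 and Gm5597, so the way multiple matches were counted bears on it. In addition, Glt8d2 on the opposite strand overlaps its end by 367 bases and shares its locus in the tables, and whether reads were counted by strand is not given in the sources used here. Glt8d2 was listed at 0.986 and 1.06 FPKM in replete TβRII-/- and TβRII fl/fl cells and at 4.60 and 2.10 FPKM in starved cells.

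Genes around these enzymes were described from lists, each beside the shares of all loci given above. Among 11 genes listed as partners or relatives of the methyltransferases, Trdmt1 by family only, 10 passed. Their median log2 ratio was 0.52 in replete cells, with 1 called higher, and -0.37 in starved cells, with 1 higher and 2 lower. Zfp57, a zinc finger protein that keeps imprinted regions methylated, was the higher in TβRII-/- cells whatever the medium, at 19.4 against 7.44 FPKM and 33.1 against 9.72 FPKM (log2 ratios 1.27 and 1.67). Cdca7, which recruits the remodeller Hells, was at 17.0 against 21.4 FPKM in replete and 2.81 against 12.8 FPKM in starved cells (-0.31 and -1.85). The other one called lower in starved cells was its paralog Cdca7l, at -1.45. Hells, a remodeller needed for methylation of repeats, stood at 208 and 139 FPKM in replete and 38.2 and 52.1 FPKM in starved TβRII-/- and TβRII fl/fl cells. Within TβRII-/- cells, 5 of the 10 were called higher with serum, and within TβRII fl/fl cells only Hells was.

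The 9 genes listed as readers of methylated CpG, or as relatives of such readers, all passed, with medians of -0.33 and -0.01. Mbd3, Mbd5 and Mbd6 belong here by family only. Zbtb38, a methyl-CpG binding zinc finger protein whose locus is joined with another transcript in the tables, was the only one called, at 1.03 in replete cells and 0.92 in starved cells. Mbd6 had ratios of -0.66 and -0.05. Mbd1, Mbd2 and Mbd3 all lay between -0.33 and 0.22 in both media.

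A chosen list, which is not the full family, held 7 genes of proteins with a CXXC domain, which binds unmethylated CpG. Of these 7 genes 6 passed, with medians of -0.49 and -0.11. Cxxc5 was lower in TβRII-/- cells in both media, at 32.6 against 99.1 FPKM and 48.6 against 109 FPKM (-1.57 and -1.15). Kmt2a, a histone H3 methyltransferase, had ratios of 0.63 and 1.21. Cxxc4, a relative of Cxxc5, was listed at 0 in every library.

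Downstream of Tdg, 14 of 15 base excision repair and demethylation genes passed, with medians of -0.05 and -0.16. In replete cells 2 were called higher and none lower, and in starved cells 2 were higher and 1 lower. Neil3 was called higher in replete cells only (1.41 and -0.22), and Gadd45b in starved cells only (0.96 and 1.43). Gadd45a was called in neither medium (-0.81 and -0.06). Gadd45g, a stress gene linked to demethylation, stood at 138 against 67.4 FPKM in replete cells and 92.7 against 12.8 FPKM in starved cells (1.02 and 2.76). Parp1, which binds DNA breaks, had near-equal levels in replete cells, 33.1 and 32.0 FPKM, and 18.9 against 114 FPKM in starved TβRII-/- and TβRII fl/fl cells (0.05 and -2.53). The starved TβRII fl/fl library was the high one.

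The Tet enzymes consume 2-oxoglutarate, which isocitrate dehydrogenases make. A list of 13 genes covered that metabolism, and also held Ogt and the vitamin C transporter genes Slc23a1 and Slc23a2. Of these 13 genes 12 passed, with medians of 0.11 and -0.19. In replete cells 1 was called higher and 1 lower, and in starved cells 1 was called higher. Idh1, the cytosolic isocitrate dehydrogenase, stood at 4.72 against 17.6 FPKM in replete cells and 72.7 against 33.4 FPKM in starved cells, so that its log2 ratio was -1.70 and 1.10. The low library was replete TβRII-/- and the high one starved TβRII-/-. Idh3a, a subunit of the mitochondrial enzyme, had ratios of 1.20 and 0.58.

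The methyl groups come from S-adenosylmethionine. Of 16 genes of the methyl donor and folate cycle, 15 passed, with medians of 0.49 and 0.08. In replete cells 3 were called higher in TβRII-/- cells and none lower, and in starved cells none was called. They included Tyms (1.38), which makes thymidylate, and Adk (1.02), which clears the adenosine released in the cycle. In starved cells Tyms had a ratio of -0.27 and Adk of 0.94. Mat2a, which makes S-adenosylmethionine, had ratios of 0.33 and -0.14.

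**Figure D4:**
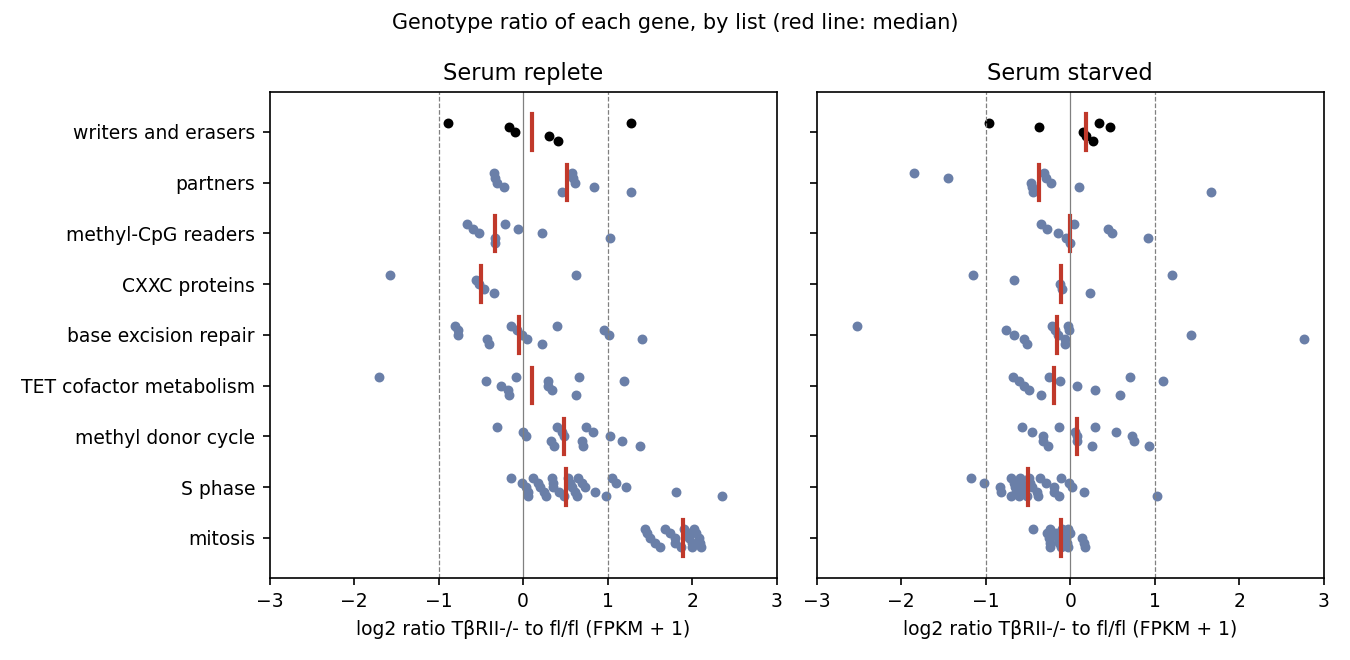
Log2 ratio of TβRII-/- to TβRII fl/fl FPKM + 1 for the members and 8 lists, replete at left and starved at right. Each point is a gene that passed the filter in that medium, offset vertically only for legibility; red lines are list medians and dashed lines mark 2-fold. The mitosis list moves from a median of 1.89 to -0.11 and the S phase list from 0.51 to -0.50, while the members' median is 0.10 and 0.18.

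Germ cell genes known to be silenced by promoter methylation in body cells were read beside the enzymes. Of 22 such genes only Sycp3, a protein of the meiotic chromosome axis, passed the filter, at 8.22 and 6.50 FPKM in replete and 12.5 and 9.70 FPKM in starved TβRII-/- and TβRII fl/fl cells. Its log2 ratios were 0.30 and 0.34. The others reached at most 0.934 FPKM in any library, and between 13 and 16 of the 22 were listed at 0. DNA methylation itself was not measured.

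Patterns most like those of the members were sought among 9080 protein-coding loci with at least 5 FPKM in some library, by the distance between log2(FPKM + 1) after subtraction of each gene's mean over the 4 libraries. The nearest to Dnmt1 were Tipin (distance 0.11), which protects the replication fork, then Nrm (0.16) and the tubulin Tuba1c (0.16). Tipin stood at 88.9, 36.1, 27.6 and 23.4 FPKM in replete TβRII-/-, replete TβRII fl/fl, starved TβRII-/- and starved TβRII fl/fl cells. The nearest to Uhrf1 were the chaperone Pdia4 (0.08), the replication factor Cdc45 (0.08) and Pop1 (0.09), an RNase P subunit. Those of Dnmt3a were the caspase Casp6 (0.06), Aig1 (0.06) and Sesn3 (0.07), and Casp6 stood at 13.4, 24.8, 24.9 and 21.2 FPKM in the same order. The nearest to Tet1 were Abcb6 (0.05), Evi5l (0.06) and Myc (0.06), with Myc at 42.0, 71.8, 46.5 and 95.5 FPKM. Since Tet1 lies near or below the pseudocount, this likeness holds for log2(FPKM + 1) and not for the FPKM themselves. Auh, Kdm6a and Rilpl1 (0.03 to 0.04) were nearest to Tet2, Tmem106b, Rdh14 and Ctso (0.01 to 0.07) to Tet3, and Sept8 (0.02) and Wasf2 (0.03) to Tdg. The distances rest on 4 libraries, and nothing on shared control follows from them.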

How the data were processed

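RNA-Seq of 4 libraries (RNeasy with DNase, Illumina HiSeq; the labels state 30000000 reads of 50 bp) was processed by the authors with TopHat2, Cufflinks and Cuffdiff on mm10, and the deposited values are FPKM per locus, 1 table for each medium. The sources used here do not give versions, annotation, strand or the treatment of multiple matches. Columns of the authors' own comparisons (fold changes, p-values, q-values) were not used, nor were 12 other files. Read counts could not be recovered: 57.1 to 64.5% of low values lay within 10% of a whole step. Precision per value is therefore unknown.

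Samples were grouped by their labels. Log2 ratios used a pseudocount of 1 FPKM, which understates changes of low genes, and a filter of 1 FPKM. No test was run with 1 library per condition. A fit of genotype with medium as a term would take the change of the genotype ratio between media as its error. Planted changes were tested on simulated data. Own rows were preferred to joined loci (458 loci hold several genes). The members and the 14 other lists were chosen with earlier results of these data known. Named were all members, of each list up to 4 genes called alike in both media (largest mean ratio first) or else those with the largest ratio until 2 were named, and the 3 nearest patterns for each member with at least 1 FPKM; other names were added after values were seen, and a few genes that the rule names are not reported here. All 201 symbols were matched, 1 by an older name. Sequences came from RefSeq (GRCm38.p6) and shared stretches from GENCODE transcripts of the same assembly. In all, 7 alternatives were run. Tools were Python 3.11.15, pandas 2.3.3, numpy 2.4.6 and matplotlib 3.10.9.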

Additional observations from a re-analysis of the deposited data

Results flagged for a closer look

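Some genes had a genotype ratio of opposite sign in the media, above 1 in one and below 1 in the other, with the filter passed in both. Of 12162 loci that passed in both media 3967 did so, so that the pattern is common. Values are the starved log2 ratio minus the replete log2 ratio, and with 1 library per condition these differences were not tested. Among the writers and erasers they were 1.07 for Dnmt3a, -0.67 for Uhrf1, 0.25 for Tet2 and 0.43 for Tet3. Among other named genes they included 2.80 for Idh1, -2.58 for Parp1, -2.20 for Aurka, -2.13 for Ccnb1 and -1.65 for Tyms. Another was -1.20 for the macrophage receptor gene Csf1r. Csf1r stood at 7.99 and 2.94 FPKM in replete and 15.1 and 15.2 FPKM in starved TβRII-/- and TβRII fl/fl cells.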

How the results depend on the processing

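With no replicates and no interval, a result was held to have changed when it crossed 2-fold or reversed, or when a count moved by over 1.5 times. Dnmt1 was called higher in replete TβRII-/- cells under all 7 alternatives, and no called value reversed. A pseudocount of 0.1 FPKM added calls: 1 member lower in replete cells (Dnmt3a, -1.02), 1 lower in starved cells (Tet1, -2.32) and, as an alternative chosen after seeing the data, 1 lower with serum in TβRII-/- cells (Tet3, -1.04). It also turned the sign of the Tet1 difference between media from -0.15 to 0.55. Tet1 was also called in starved cells, as 1 member lower, with a pseudocount of 0.5 FPKM (-1.40) and with centring on the upper quartile (-1.01). A filter of 5 FPKM left 561 loci lower in starved cells in place of 842; fewer loci were then counted. Centring moved genotype ratios by at most 0.05, and Orc1 in starved cells then fell just short of the call, at 0.97 on the upper quartile. The other changes concerned cell type markers. Among loci between 0.25 and 4 FPKM in both TβRII fl/fl libraries, 7.83% were lower in both TβRII-/- libraries by at least 7.24-fold, in place of 7.58%. The labels give no replicate numbers, and no fit paired by medium was run. The absence of read numbers limits the low members most, Tet1 and Dnmt3b.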
